A study of Mus musculus with 3 samples.

Results

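Glycolysis and the TCA cycle were followed through 46 mouse genes that encode their enzymes, chosen by symbol as an enzyme list, out of 29267 genes in the expression tables. All 46 were found and all had a count in at least 1 library. They comprise 21 genes of glycolysis from hexokinase to lactate dehydrogenase, 8 genes of the pyruvate dehydrogenase complex and the kinases that switch it off, and 17 genes of the TCA cycle. RNA-seq had been carried out on mouse embryonic fibroblasts (MEFs), the somatic cells from which reprogramming starts, and on embryonic stem cells (ESCs), the pluripotent reference. There was 1 MEF sample of the OG2 strain, whose Oct4-GFP transgene reports pluripotency, and 1 of the ICR strain, with passages 3 to 5 given for each. The ESC sample was R1, a cell line labelled naive and taken at passage 30. The labels name no reprogramming factor or drug treatment for any of the 3 samples, and each is 1 library.

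Glycolysis splits glucose into pyruvate in the cytosol, and lactate dehydrogenase can then reduce pyruvate to lactate. The pyruvate dehydrogenase complex instead carries pyruvate into the mitochondrion's TCA cycle as acetyl-CoA, and the Pdk kinases block that step. Several steps are served by alternative isozymes from separate genes, whose balance differs between tissues, and pluripotent cells are known for a strong reliance on glycolysis.

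The libraries held 1717838 to 5149312 counts, with the library labelled ESC the shallowest, where 3 counts stood for 1.75 CPM before TMM scaling, against 0.583 CPM for OG2 and 0.654 CPM for ICR. CPM, used below after that scaling, are counts relative to library size. The 9 fibroblast markers summed to 33323 and 34827 CPM in the MEF samples and to 4133 CPM in the library labelled ESC, and none was at 0. Of 11 pluripotency markers, Zfp42, Dppa5a, Lin28a and Utf1 were at 0 in every library. Among the 7 with a count, 5 were higher in the library labelled ESC than the MEF average and 2 were lower. Pou5f1 had 0, 0 and 71 counts in the OG2 MEFs, the ICR MEFs and the library labelled ESC. Nanog had 2, 0 and 51 and Sox2 had 3, 4 and 32, whereas Klf2 had 63, 91 and 2. The 11 summed to 12.1 and 18.6 CPM in MEFs and 123 CPM in the library labelled ESC. That library is therefore called by its label. The 8 markers of stratified epithelium summed to 1.24 and 2.71 CPM in MEFs and to 318 CPM in the library labelled ESC, of which Krt14 alone gave 297, with Krt5 and Krt4 at 0 throughout and Trp63 at 0 in the library labelled ESC. Whether the label is right and what part these markers have in the differences below was not tested, and both bear on every comparison with MEFs. In bulk samples, fewer cells of a type and less RNA per cell cannot be told apart.

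Differences are given on the log2(CPM + 1) scale, as the value in the library labelled ESC less the average of the MEF pair. A member was said to be past the threshold when it was 1 log2 unit or more away from each MEF sample, and to have risen or fallen when edgeR's quasi-likelihood test passed an adjusted p of 0.05. With a single ESC library the spread behind this test came from the MEF pair alone, whose samples also differ in strain. The fit was scaled again after its filter on low counts, and its own log2 fold changes ran above the differences given here by a median of 0.15. They were 0.55, 0.53 and 0.49 for Ogdh, Suclg1 and Mdh2, whose differences were 0.38, 0.36 and 0.32. For Pdk1 the fold change was 0.019 and the difference -0.14. Nothing in the labels says that more than 1 culture was taken per strain, so p-values measure only the spread between these samples.

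The members divided without a common direction, and their shares of calls lay near those of all genes. Past the threshold were 9 of 46 members on the higher side (19.6%, against 21.9% of all genes with a count) and 12 on the lower side (26.1%, against 25.9%). Among genes with at least 10 counts in a library, the background was 23.7% and 35.7%. The 9 include Pgam2, which had 4 counts in each library, and the 12 include Hk3 and Pdk4, which were at 0 in the library labelled ESC. Of the 45 members tested, 11 rose (24.4%, against 31.4% of all genes tested) and 14 fell (31.1%, against 36.0%). DESeq2 called 17 of these 25 in the same direction. The samples of MEFs differed far less, with 1 member at least 1 log2 unit apart, Eno2, against 2.76% of all genes with a count and 3.26% of those with at least 10. The SD of the differences over the 46 members was 1.22 log2 units between the library labelled ESC and MEFs and 0.27 between the MEF samples. Over all genes with at least 10 counts in a library both were larger, at 2.12 and 0.43.

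**Figure D1:**
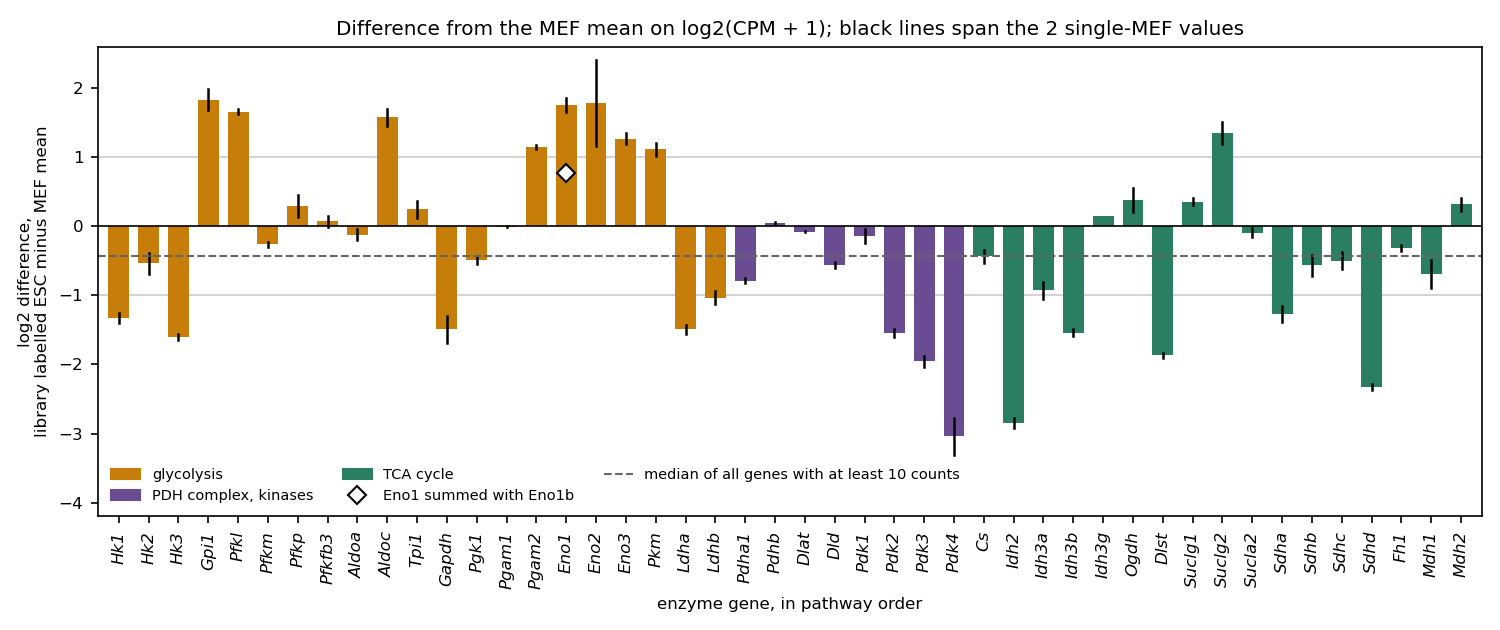
The difference on the log2(CPM + 1) scale of each of the 46 members, library labelled ESC less the average of the MEF pair, with black lines spanning the differences from each MEF sample, a diamond for Eno1 summed with Eno1b (0.78) and a dashed line at the median of all genes with at least 10 counts (-0.43). Gpi1, Eno2 and Eno1 reach 1.84, 1.79 and 1.75, and Pdk4 and Idh2 lie lowest at -3.04 and -2.84.

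Glucose is first phosphorylated by hexokinase, and Hk1, the broadly expressed form, held most hexokinase counts in every library. Hk1 stood at 107 CPM in the OG2 MEFs, 118 CPM in the ICR MEFs and 44.5 CPM in the library labelled ESC. Both MEF samples lay well above the library labelled ESC. Hk1 fell, with a difference of -1.32 from a MEF mean of 6.83 ± 0.10 (SD, n = 2; edgeR's quasi-likelihood test, Benjamini-Hochberg adjusted p = 0.000652). Hk2, the inducible form of muscle and growing cells, stood at 49.3, 39.5 and 30.1 CPM, a difference of -0.54 that was not called (edgeR adjusted p = 0.195). Hk3, a form of blood cells, had 11 counts in each MEF sample and 0 of 1717838 in the library labelled ESC, where 3 counts could still have gone unseen, so no fold is given.

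As a share of hexokinase counts, Hk1 made up 67.6% in the OG2 MEFs (95% Wilson interval 64.5 to 70.6), 74.0% in the ICR MEFs (70.9 to 76.9) and 59.6% in the library labelled ESC (50.0 to 68.5, from 104 counts). These intervals, like all given here, cover counting error only. The interval in the library labelled ESC overlaps that of the OG2 MEFs and not that of the ICR MEFs. On the TPM scale, which divides by length, the Hk1 share was 69.3%, 72.5% and 19.7%. For Hk2 the length from RSEM was 4326 bases in the OG2 MEFs and 3671 in the ICR MEFs, but 833 in the library labelled ESC, so the order of the isozymes there turned on the length used.

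Phosphofructokinase, the committed step of glycolysis, differed in isozyme choice. The liver-type gene Pfkl had 748 counts of 1361 for the family in the OG2 MEFs (55.0%, interval 52.3 to 57.6), 651 of 1294 in the ICR MEFs (50.3%, 47.6 to 53.0) and 575 of 754 in the library labelled ESC (76.3%, 73.1 to 79.2). The muscle-type gene Pfkm took 15.4% and 14.1% in MEFs and 5.57% in the library labelled ESC. For the platelet-type gene Pfkp the shares were 29.7%, 35.5% and 18.2%. All shares of the family rest in part on the counts of Pfkp, which are uncertain for a reason given below that the intervals do not cover. None of the intervals in the library labelled ESC overlapped those of either MEF sample, and the Pfkl share on the TPM scale kept this order at 54.4%, 48.2% and 69.7%.

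Across libraries, on CPM, the shift came with higher Pfkl rather than with a called loss of the other forms. On TPM Pfkl was nearly level, and Pfkm and Pfkp differed by -1.68 and -0.99. The TPM median of all genes with at least 10 counts was -1.54. Pfkl stood at 133, 126 and 412 CPM and rose by 1.67 from a MEF mean of 7.03 ± 0.05 (SD, n = 2; edgeR adjusted p = 1.19e-05), while on TPM it stood at 88.0, 87.9 and 81.4, a log2 difference of -0.11. Pfkm, at 37.1, 35.4 and 30.1 CPM, differed by -0.26 and was not called (edgeR adjusted p = 0.719). Pitrm1, with 1039, 912 and 28 counts, shares 275 bases with Pfkp on the opposite strand. The counts of Pfkp are uncertain for that reason. It stood at 71.7, 89.0 and 98.2 CPM, a difference of 0.29 that was not called (edgeR adjusted p = 0.0593). Pfkfb3, which makes the bisphosphate that activates phosphofructokinase, stood at 28.2, 31.7 and 31.6 CPM, with the library labelled ESC between the MEF samples.

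**Figure D2:**
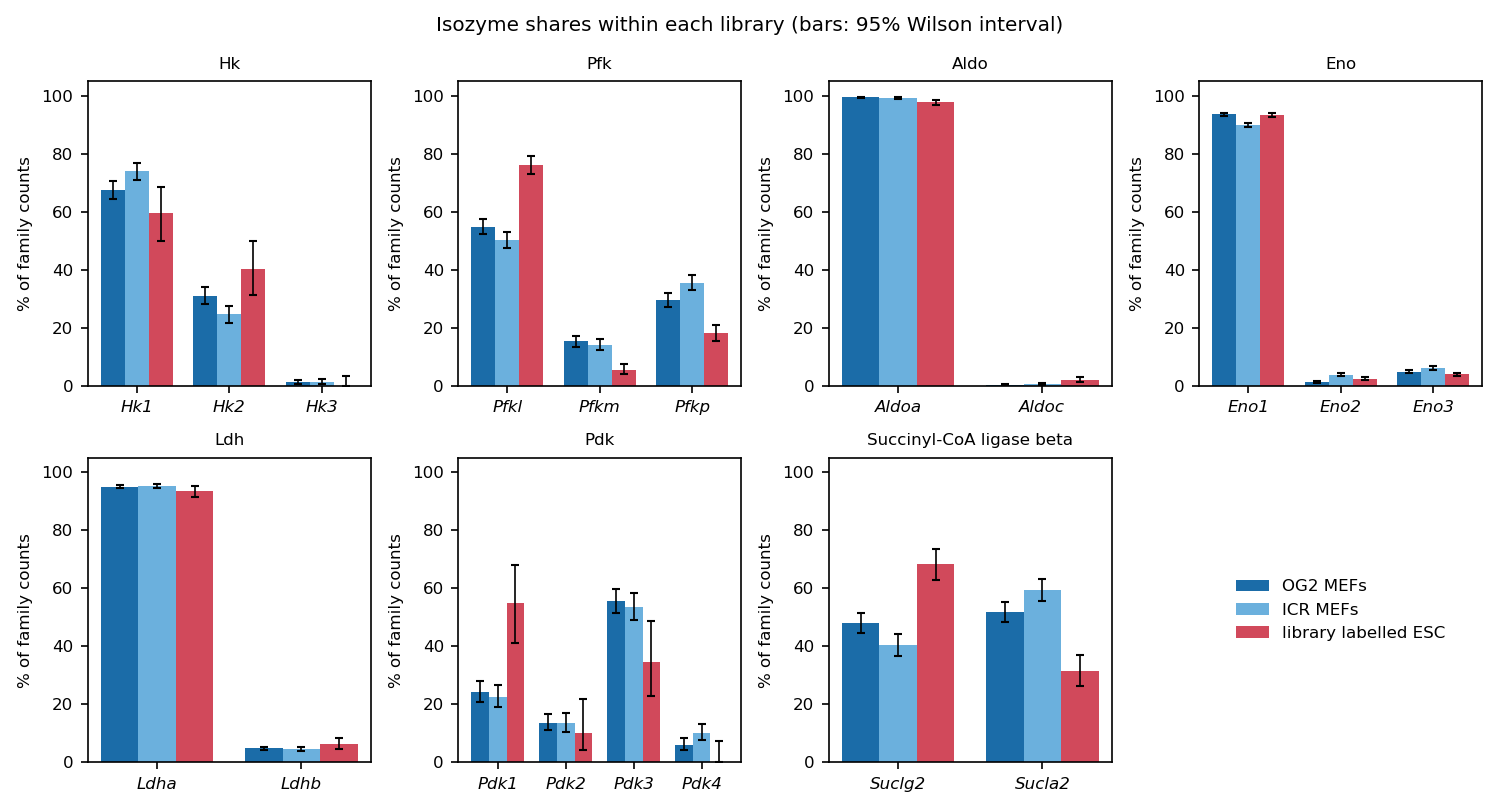
Share of each isozyme in the summed counts of its family, in percent, in the OG2 MEFs, the ICR MEFs and the library labelled ESC, with 95% Wilson intervals that cover counting error only. Pfkl is at 55.0%, 50.3% and 76.3% and Suclg2 at 48.1%, 40.4% and 68.5%, whereas Aldoa is at 99.5%, 99.4% and 98.0%.

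The phosphoglucose isomerase Gpi1 (chr7:34201330-34230336 on mm10, the build of all positions given here), which converts glucose phosphate to fructose phosphate, was among the members with the highest positive differences. It stood at 443 CPM in the OG2 MEFs, 356 CPM in the ICR MEFs and 1423 CPM in the library labelled ESC. The MEF samples lay close together and far below the library labelled ESC. Gpi1 rose by 1.84 from a MEF mean of 8.64 ± 0.22 (SD, n = 2; edgeR adjusted p = 2.06e-05), and by 1.82 with the counts of its pseudogene Gm1840 added. Its difference was 0.23 on the TPM scale and 1.496 after GC-content correction. The counts of Gpi1 relative to those of triosephosphate isomerase, Tpi1, were 0.751 and 0.717 in MEFs and 2.21 in the library labelled ESC.

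Aldolase and phosphoglycerate mutase kept a single main gene. Aldoa, the muscle and general aldolase, held 99.5% and 99.4% of aldolase counts in MEFs and 98.0% in the library labelled ESC (interval 97.0 to 98.6), at 957, 858 and 835 CPM. The brain-type Aldoc had 26, 29 and 24 counts, a low level that came to 4.61, 5.61 and 17.2 CPM. Aldoc rose by 1.58 from 2.61 ± 0.17 (SD, n = 2) by edgeR (adjusted p = 0.00394) and was not called by DESeq2 (adjusted p = 0.0956). Pgam1 held 99.9%, 99.9% and 99.5% of mutase counts, at 617, 608 and 611 CPM, and the muscle form Pgam2 had 4 counts in each library and was not tested. Tpi1 stood at 590, 496 and 643 CPM, a difference of 0.25 that was not called (edgeR adjusted p = 0.0782).

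Gapdh (chr6:125161715-125166467), which oxidises glyceraldehyde phosphate and is widely used as a reference gene, was the most abundant member per length in each library, at 6063, 4619 and 1595 TPM. Its counts nonetheless differed strongly. Gapdh stood at 3234 CPM in the OG2 MEFs, 2466 CPM in the ICR MEFs and 1007 CPM in the library labelled ESC, with both MEF samples well above. It fell by 1.49 on the log2 scale from 11.46 ± 0.28 (SD, n = 2; edgeR adjusted p = 0.000847), and its part of all glycolysis counts was 27.0%, 23.9% and 6.75%.

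Gapdh has many pseudogenes, and 3 genes in the tables matched it at 95% identity or more over at least 200 bases. The closest, Gm3839, held 33, 32 and 112 counts, and Gapdh and Gm3839 together differed by -1.38. The length that RSEM gave Gapdh was 1246 bases, 1315 bases and 590 bases, so its TPM in the library labelled ESC is raised against its counts. Pgk1, the next enzyme and the first to yield ATP, stood at 841, 773 and 577 CPM, a difference of -0.48 (edgeR adjusted p = 0.161). Its processed pseudogene Pgk1-rs7 held 0, 0 and 194 counts over a stretch of 1255 identical bases, and the sum of both differed by -0.17.

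Enolase, which makes phosphoenolpyruvate, was where sequence copies mattered most. Eno1 (chr4:150236721-150248879), the general form, stood at 1129, 981 and 3553 CPM and rose by 1.75 from 10.04 ± 0.14 (SD, n = 2; edgeR adjusted p = 2.24e-05). Its near-identical copy Eno1b matches it at 99.5% over 1652 bases. Eno1b held 6384 counts in the OG2 MEFs, 5124 in the ICR MEFs and only 100 in the library labelled ESC, which was 50.1%, 50.3% and 1.98% of the sum of both genes.

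RSEM thus divided these reads almost evenly in MEFs and gave nearly all to Eno1 in the library labelled ESC. Whether that library was processed in the same way as the MEF libraries is not given in the sources used here. Summed, the pair stood at 2263, 1973 and 3624 CPM, still higher in the library labelled ESC but by 0.78, which is short of the threshold (edgeR adjusted p = 0.00194). On the CPM scale the pair was thus called higher with either counting, and the size of the difference rested largely on how the reads were divided. On TPM, Eno1 alone differed by 0.12. With Eno1b included, all enolase genes together stood at 2839, 2691 and 1484 TPM, lower in the library labelled ESC. The pair made up 96.0%, 93.5% and 92.3% of that TPM, so it was lower there too. The TPM difference of all genes with at least 10 counts had a median of -1.54.

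The neuronal form Eno2 and the muscle form Eno3 were minor. Eno2 stood at 17.0 CPM in the OG2 MEFs, 41.6 CPM in the ICR MEFs and 94.7 CPM in the library labelled ESC, so the strains were far apart and both lay below. Eno2 rose by 1.79 from 4.79 ± 0.88 (SD, n = 2; edgeR adjusted p = 0.00313), or by 1.17 without the OG2 sample and 2.41 without the ICR sample, while its TPM in the library labelled ESC, 30.9, lay between the 17.9 and 59.6 of the MEF samples. The 6 neural markers summed to 331 and 385 CPM in MEFs and 830 CPM in the library labelled ESC, of which Nes gave 491 and Stmn2 313, while Tubb3 and Map2 fell by edgeR and the median difference of the list was -0.07. Their part in the Eno2 and Aldoc values was not tested. Eno3 stood at 59.3, 66.7 and 153 CPM and rose by 1.27 (edgeR adjusted p = 5.27e-05), with a log2 difference of -0.33 on TPM. The 7 skeletal muscle markers summed to 172, 94.8 and 30.8 CPM, with Ckm and Myod1 at 0 throughout. Of the 5 with a count, 4 differed downward and 1 upward, and only 2 had at least 10 counts in any one library. What part muscle markers have in the Eno3 value was not tested. As shares of enolase counts, Eno1 kept 93.7%, 90.1% and 93.5%, and Eno2 1.41%, 3.82% and 2.49%, with the library labelled ESC between the strains. With the counts of Eno1b added to Eno1, the shares were 96.7%, 94.8% and 93.6% for Eno1 and 0.729%, 1.999% and 2.44% for Eno2, and the library labelled ESC lay outside both strains.

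The last steps moved apart. Pkm (chr9:59656368-59679375), the pyruvate kinase of most tissues, stood at 2420, 2119 and 4922 CPM and rose by 1.12 from 11.15 ± 0.14 (SD, n = 2; edgeR adjusted p = 0.000301), with -0.45 on TPM and 0.32 after GC-content correction. Ldha (chr7:46841475-46855627), the main lactate dehydrogenase gene, stood at 1167, 1068 and 397 CPM. Ldha fell by 1.49 from 10.13 ± 0.09 (SD, n = 2; edgeR adjusted p = 0.000313), and both MEF samples lay far above the library labelled ESC. Ldhb, the heart-type form, stood at 59.3, 51.7 and 26.5 CPM and fell by 1.03 by edgeR (adjusted p = 0.00782) but was not called by DESeq2 (adjusted p = 0.166).

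The balance of the lactate dehydrogenases differed little by counts, with Ldha at 95.2% and 95.4% in MEFs and 93.7% (interval 91.5 to 95.4, which overlaps both) in the library labelled ESC. On TPM it was 94.0%, 94.3% and 88.0%, and RSEM had given Ldhb a length of 1304 bases in each MEF sample and 851 in the library labelled ESC. The counts of Pkm relative to Ldha, a ratio that needs no scaling between libraries, were 2.07 in the OG2 MEFs (2.01 to 2.14), 1.98 in the ICR MEFs (1.92 to 2.05) and 12.4 in the library labelled ESC (11.4 to 13.5). The same ratio on TPM was 1.29, 1.24 and 7.79. Per length, Ldha ranked 3rd among the members in both MEF samples and 10th in the library labelled ESC, whereas Pkm ranked 2nd in all 3.

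**Figure D3:**
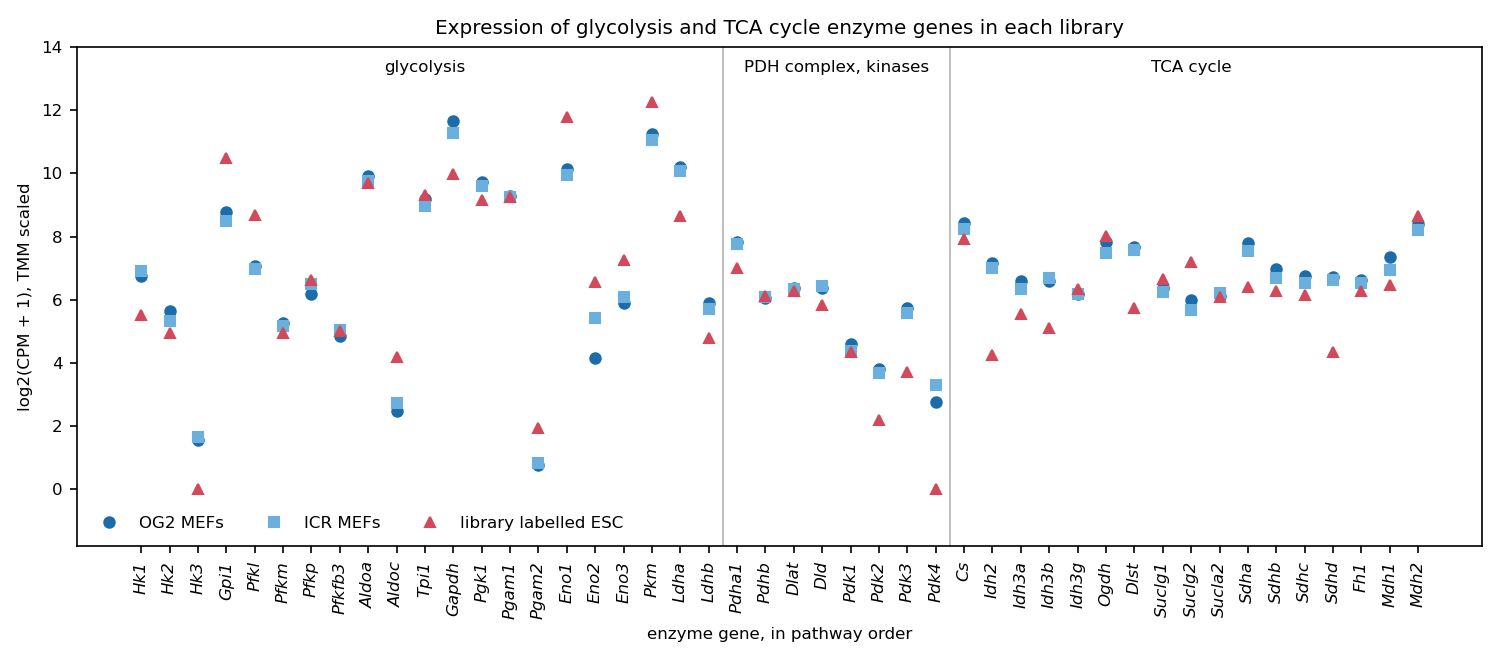
Level of each of the 46 members on the log2(CPM + 1) scale in the OG2 MEFs, the ICR MEFs and the library labelled ESC. The MEF samples overlie each other for nearly every member, with Pearson's r of 0.994 over the 46 members, against 0.880 and 0.888 with the library labelled ESC.

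Bases before the transcription start were read for members with a RefSeq window on GRCm38.p6, to set out the letters ACGTG, the core of the hypoxia response element, on either strand. The core lies within the E-box CACGTG, and such overlaps were counted once. It was found for 16 of 44 members with a window of 250 bases (36.4%), for 9 of 21 glycolysis genes (42.9%) and for 7 of 23 of the others (30.4%), against 23.4% of 12741 genes with a count and a window. Among members past the threshold it was in 1 of 9 higher and 5 of 12 lower. Ldha, on the plus strand, and Pgk1 are shown because several cores stand close together there, and Gpi1, which rose by 1.84, because its window holds none, with each match in capitals.
Ldha at chr7:46845554-46845803, plus strand: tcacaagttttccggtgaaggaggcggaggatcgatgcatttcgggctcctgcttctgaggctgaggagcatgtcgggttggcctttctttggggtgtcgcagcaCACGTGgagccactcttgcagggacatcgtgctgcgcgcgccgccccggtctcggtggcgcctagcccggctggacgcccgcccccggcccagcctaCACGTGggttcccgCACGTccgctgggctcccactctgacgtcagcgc
Pgk1 at chrX:106186850-106187099, plus strand: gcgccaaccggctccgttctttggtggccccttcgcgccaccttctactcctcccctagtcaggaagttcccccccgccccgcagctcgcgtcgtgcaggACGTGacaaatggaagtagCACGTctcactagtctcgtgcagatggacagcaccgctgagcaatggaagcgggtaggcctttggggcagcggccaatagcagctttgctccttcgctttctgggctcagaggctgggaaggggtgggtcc
Gpi1 at chr7:34230337-34230586, minus strand: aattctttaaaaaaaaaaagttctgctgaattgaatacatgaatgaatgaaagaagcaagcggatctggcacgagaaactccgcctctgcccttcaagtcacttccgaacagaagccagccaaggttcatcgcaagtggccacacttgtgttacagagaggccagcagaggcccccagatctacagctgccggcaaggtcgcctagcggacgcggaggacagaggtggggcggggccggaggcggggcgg
The Ldha window held 3 sites, of which 2 are whole E-boxes, and its level fell. Another RefSeq start of Ldha has a window without the letters. A match is a description of sequence only. Hif1a, which encodes the oxygen-regulated subunit that binds this element, had 1572, 1375 and 31 counts and fell by 3.56 on the log2 scale (edgeR adjusted p = 2.51e-06).

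Pyruvate enters the TCA cycle through the pyruvate dehydrogenase complex. Of the 8 members of the pyruvate dehydrogenase complex and its kinases 0 rose and 4 fell (against 31.4% and 36.0% of all genes tested). Their median difference was -0.67, against -0.43 for all genes with at least 10 counts in a library. For genes with a mean of at least 100 counts in MEFs the median was -0.71. Pdha1, the catalytic alpha subunit, stood at 227, 215 and 128 CPM and fell by 0.79 by edgeR (adjusted p = 0.0127) but not by DESeq2 (adjusted p = 0.0908). It shares 426 bases with Map3k15 on the opposite strand, a gene with 13, 11 and 0 counts. The beta subunit Pdhb stood at 66.0, 67.3 and 68.8 CPM, the acetyltransferase Dlat at 81.5, 80.3 and 76.7 CPM, and the shared dehydrogenase Dld at 81.6, 86.1 and 56.7 CPM, and none of these was called.

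The kinases were scarcer in the library labelled ESC. Pdk3 had 298, 244 and 17 counts and fell by 1.95 from 5.67 ± 0.11 (SD, n = 2; edgeR adjusted p = 0.000305). Pdk4, a kinase induced by fasting, had 33, 46 and 0 counts and was at least 3.43-fold lower, taking 3 counts as the floor of the library labelled ESC. Pdk2 had 73, 61 and 5 counts and fell by 1.54 by edgeR (adjusted p = 0.0225), though not by DESeq2 (adjusted p = 0.26). Pdk1, a kinase known as a target of hypoxia signalling, was the exception among the 4 at 23.1, 19.9 and 19.4 CPM, a difference of -0.14 that was not called (edgeR adjusted p = 0.966). Its share of kinase counts was thus 24.3%, 22.7% and 55.1% (41.3 to 68.1, of 49 counts), and that of Pdk3 was 55.8%, 53.7% and 34.7% (22.9 to 48.7). Counts of all kinases per count of the complex were 0.208 and 0.196 in MEFs and 0.107 (0.0794 to 0.143) in the library labelled ESC.

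Within the cycle, subunits of one enzyme differed from each other, with a smaller spread than genes at large. Of the 17 genes 4 rose, 6 fell and 7 were not called, beside 31.4% and 36.0% of all genes tested that rose and fell. Their median difference was -0.50. The median was -0.43 over all genes with at least 10 counts in a library. It was -0.71 over genes with a mean of at least 100 counts in MEFs. The largest fall among the 17 was that of Idh2 (chr7:80094846-80115392), the mitochondrial isocitrate dehydrogenase that makes NADPH. It stood at 142, 128 and 17.9 CPM, from 799, 662 and 25 counts, and fell by 2.84 from 7.09 ± 0.10 (SD, n = 2; edgeR adjusted p = 1.08e-05). The mean CPM of the MEF samples was 7.53-fold that of the library labelled ESC, and the groups lay far apart.

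The NAD-dependent enzyme is built from Idh3a, Idh3b and Idh3g, of which Idh3b fell and Idh3g was not called. Idh3b stood at 96.2, 103 and 33.7 CPM, a fall of 1.54 (edgeR adjusted p = 0.000271). Idh3a stood at 96.4, 80.7 and 45.9 CPM, which edgeR called lower (adjusted p = 0.00952) and DESeq2 did not (adjusted p = 0.14). Idh3g stood at 72.4, 72.0 and 80.3 CPM, a difference of 0.15 (edgeR adjusted p = 0.12). Among these subunits the differences from MEFs had an SD of 0.86 log2 units, against 0.18 between the strains. Over all genes with at least 10 counts in a library these SDs were larger, at 2.12 and 0.43.

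Succinate dehydrogenase, which also serves the respiratory chain, likewise had subunits that differed from each other. Its membrane anchor Sdhd (chr9:50596357-50603812) had 585, 507 and 27 counts and fell by 2.32 from 6.67 ± 0.06 (SD, n = 2; edgeR adjusted p = 3.06e-05). The flavoprotein Sdha stood at 220, 187 and 83.9 CPM and fell by 1.27 (edgeR adjusted p = 0.000967). The iron-sulfur subunit Sdhb, at 126, 101 and 76.0 CPM, and the anchor Sdhc, at 108, 91.5 and 70.3 CPM, were not called (edgeR adjusted p = 0.104 and 0.15). The SD over the 4 subunits was 0.85 log2 units, against 0.095 between the strains, and was also below the 2.12 of all genes with at least 10 counts.

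The oxoglutarate dehydrogenase subunits went opposite ways by edgeR. Dlst, the succinyltransferase, stood at 202, 191 and 53.1 CPM and fell by 1.87 from 7.62 ± 0.06 (SD, n = 2; edgeR adjusted p = 6.13e-05). Ogdh, the first subunit, stood at 225, 177 and 261 CPM, a difference of 0.38 (edgeR adjusted p = 0.0323) that DESeq2 did not call (adjusted p = 0.105) and that was -0.71 on TPM.

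Succinyl-CoA ligase forms GTP or ATP depending on its beta subunit, and the balance of these subunits turned over. Suclg2, the GTP-forming subunit, had 355 of 738 counts of the pair in the OG2 MEFs (48.1%, interval 44.5 to 51.7), 260 of 643 in the ICR MEFs (40.4%, 36.7 to 44.3) and 202 of 295 in the library labelled ESC (68.5%, 63.0 to 73.5). The interval in the library labelled ESC lay above both others, and the TPM shares, 41.6%, 36.1% and 60.7%, were in the same order. Suclg2 rose by 1.35 from 5.84 ± 0.23 (SD, n = 2; edgeR adjusted p = 8.14e-05), with -0.20 on TPM. Sucla2, the ATP-forming subunit, stood at 68.0, 74.1 and 66.7 CPM and was not called (edgeR adjusted p = 0.711). The shared alpha subunit Suclg1 stood at 81.1, 75.3 and 100 CPM, a difference of 0.36 that edgeR called (adjusted p = 0.019), DESeq2 did not (adjusted p = 0.234), and that was -1.28 on TPM.

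The remaining members were the entry enzyme Cs at 347, 304 and 241 CPM, the fumarase Fh1 at 97.8, 91.5 and 76.0 CPM and the cytosolic malate dehydrogenase Mdh1 at 162, 122 and 86.8 CPM, none of which was called. The mitochondrial Mdh2 stood at 339, 297 and 397 CPM, a difference of 0.32 that edgeR called (adjusted p = 0.0345), DESeq2 did not (adjusted p = 0.0891), and that was -0.48 after GC-content correction and -1.26 on TPM. Counts of Mdh2 per count of Mdh1 were 2.10, 2.44 and 4.58 (3.76 to 5.57), so the mitochondrial form took more of the pair in the library labelled ESC.

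Set against each other, the pathways held a higher ratio of glycolysis to TCA cycle counts in the library labelled ESC. Before TMM scaling, the TCA cycle's share of all counts was lower there and that of glycolysis lay between the strains. Glycolysis counts per TCA cycle count were 4.70 in the OG2 MEFs (4.61 to 4.78), 4.60 in the ICR MEFs (4.51 to 4.70) and 8.04 in the library labelled ESC (7.72 to 8.37). Without Gapdh the ratio was 3.43, 3.50 and 7.50. Without Eno1 and Pkm it was 3.30, 3.22 and 3.47, which is a description only, since both were singled out after they were seen to be higher and leaving them out must lower the ratio in the library labelled ESC. With Eno1b added to glycolysis it was 5.14, 5.04 and 8.08.

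**Figure D4:**
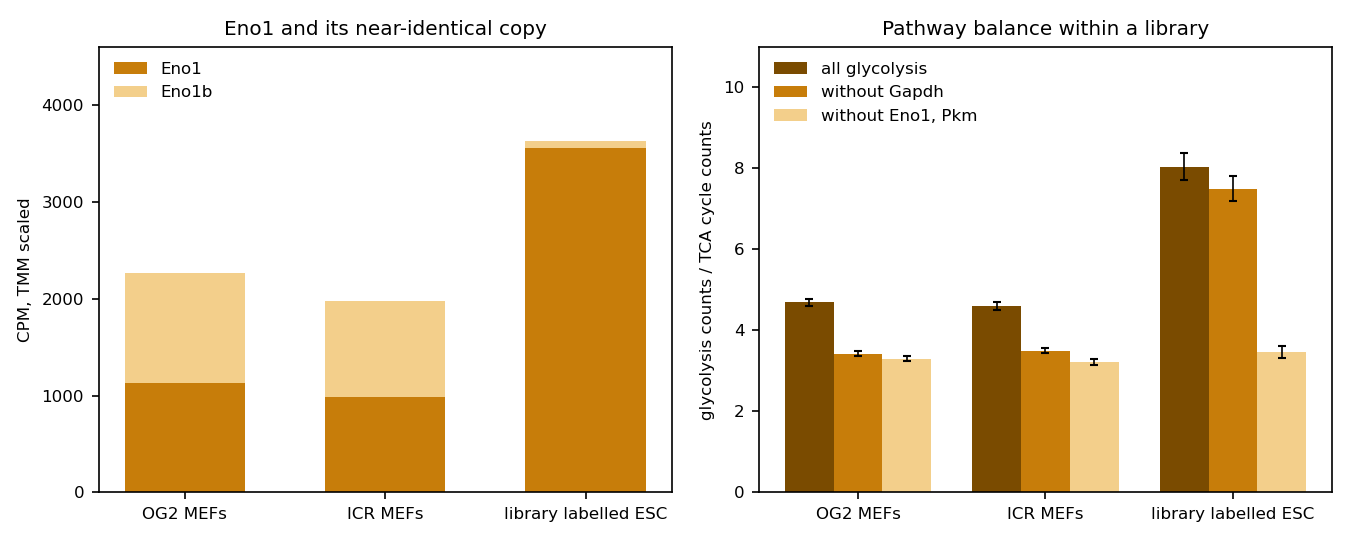
Left, CPM of Eno1 and its copy Eno1b stacked, which sum to 2263, 1973 and 3624 in the OG2 MEFs, the ICR MEFs and the library labelled ESC. Right, counts of the glycolysis members per count of the TCA cycle members in the same libraries, for all members and with Gapdh or Eno1 and Pkm left out, with 95% intervals for counting error. The ratio for all members is 4.70, 4.60 and 8.04, and without Eno1 and Pkm it is 3.30, 3.22 and 3.47.

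As shares of all counts, glycolysis held 1.31%, 1.16% and 1.21%, with the library labelled ESC between the strains, and the TCA cycle held 0.279%, 0.253% and 0.151%. These shares are without TMM scaling, whose factors were 1.09, 1.13 and 0.812. Dividing by the factors puts the glycolysis sum of the library labelled ESC above both MEF samples and leaves its TCA cycle sum below both. The median difference of the 21 glycolysis genes was 0.07 (7 rose, 4 fell and 9 were not called), and that of the 25 other members was -0.56 (4 rose, 10 fell and 11 were not called). Of all genes tested, 31.4% rose and 36.0% fell. The median over all genes with at least 10 counts was -0.43. Over genes with a mean of at least 100 counts in MEFs it was -0.71, below the median of the 25 other members.

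Neighbouring genes of the pathway were counted from a list of 58, of which 45 were tested, and 13 rose and 19 fell, beside 31.4% and 36.0% of all genes tested. Of the 7 genes of glucose, lactate and pyruvate transport 3 rose and 2 fell. Slc16a3, the lactate exporter of glycolytic cells, stood at 48.5, 61.5 and 425 CPM and rose by 2.94 (edgeR adjusted p = 1.18e-06). The mitochondrial pyruvate carrier is made of Mpc1 and Mpc2. Mpc1 had 224, 215 and 2 counts and fell by 4.10 (edgeR adjusted p = 2.55e-05), whereas Mpc2 rose by 1.08 from 4.45 ± 0.04 (SD, n = 2; edgeR adjusted p = 0.00101). DESeq2 did not call Mpc2, whose difference was 0.23 on TPM with RSEM lengths of 801, 729 and 516 bases. Slc16a1, another lactate and pyruvate transporter, stood at 33.0, 40.0 and 31.6 CPM and was not called (edgeR adjusted p = 0.896).

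Of the 7 genes of the pentose phosphate pathway, which branches from glucose phosphate to make NADPH and ribose, 5 rose and 2 fell, in a comparison that called 31.4% and 36.0% of all genes tested. Among the rises, Pgls, the lactonase, went from 85.6 and 75.6 CPM to 691 CPM, a rise of 3.09 (edgeR adjusted p = 6.46e-07). The other rises included Pgd and Tkt, which were lower on TPM in the library labelled ESC (203, 161 and 128 TPM for Pgd, 173, 161 and 80.9 TPM for Tkt). Their TPM differences were -0.49 and -1.03, where the median of all genes with at least 10 counts was -1.54. Taldo1, the transaldolase, rose by 2.11 and Rpia, the ribose phosphate isomerase, by 2.48. G6pdx, the entry enzyme, fell by 2.04 (edgeR adjusted p = 0.00023), as did Rpe by 1.59. Of 14 other TCA and shuttle genes 2 rose and 8 fell, beside the same 31.4% and 36.0%, with the citrate carrier Slc25a1 up by 2.12, the dicarboxylate carrier Slc25a10 up by 2.47 and the cytosolic isocitrate dehydrogenase Idh1 at -1.66.

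Scaling bears on every direction given across libraries. On deposited TPM the median of genes with at least 10 counts moved by -1.11 log2 units to -1.54. No member stayed past the threshold on the higher side. Pfkl, Eno2, Eno3, Pkm, Ogdh, Suclg1, Suclg2 and Mdh2 changed sign, each to a value above that median. With GC-content correction over 20 bins of genes, 4 members were past the threshold on the higher side, and Pfkl differed by 0.87 and Eno3 by 0.93. Shares and ratios within a library do not depend on scaling between libraries. TPM and counts can still order isozymes differently, as for hexokinase and the Pdk kinases.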

How the data were processed

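RNA-seq of 2 MEF samples and 1 ESC sample was used. The paper describes trimming and alignment with bowtie2 to transcripts, and per the labels Bowtie and RSEM were used with build mm10. The authors' RSEM tables, deposited for each library, hold an expected count (an estimated number of reads), TPM (scaled by gene length to a fixed sum) and FPKM. The deposited FPKM was not used. The RSEM lengths in the same tables were read only to set beside TPM. A later normalization for GC content is described in the paper, and the expected counts were taken as not yet carrying it. RSEM divides reads among similar genes, and use of strand is not given in the sources used here. The paper names an Ensembl release that may be older than some identifiers in the tables.

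Expected counts were rounded and TMM-scaled with edgeR 4.0.16 under R 4.3.3. Differences used log2(CPM + 1). edgeR's quasi-likelihood test was fitted on 12663 genes with Benjamini-Hochberg adjustment and 1 residual degree of freedom. DESeq2 1.42.0 was an alternative, beside median-of-ratios factors, pseudocounts of 0.1 and 5, TPM, filters, GC-content correction and each MEF sample left out. Near-identical genes were sought with blastn 2.17.0 (at least 95% identity over 200 bases). Positions and promoters are from GENCODE M21 and RefSeq on GRCm38. Remaining steps ran in Python 3.11.15 (scipy 1.17.1, pandas 2.3.3, numpy 2.4.6). Depth was 5149312, 4590619 and 1717838 counts.

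The genes named were all isozyme family members, the subunits of the pyruvate, NAD isocitrate and succinate dehydrogenases, Gapdh, near-identical genes with counts, the 5 largest rises and falls, and listed neighbours past the threshold. Some of these neighbours are not reported here. Members and lists were chosen with earlier results of these data known. Sums with copies were added after seeing the data.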

Additional observations from a re-analysis of the deposited data

How the results depend on the processing

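DESeq2 called 7 members higher where edgeR called 11. On TPM 0 members were past the threshold on the higher side and 33 on the lower side, and with GC-content correction 4 were on the higher side. The TPM median of all genes with at least 10 counts was itself -1.54. Shares of all genes past the threshold were not computed for TPM or GC-content correction, so these counts are not read as a result about the members. The glycolysis median of 0.07 became 0.26 with median-of-ratios factors, -1.30 on TPM and -0.040 with GC-content correction. The median of the pyruvate dehydrogenase and TCA members, -0.56, became -0.37 with median-of-ratios factors and -2.14 on TPM, and that of the TCA cycle enzymes alone, -0.50, became -0.30 and -2.14. The cause was not tested. On TPM the differences of Pfkl (-0.11), Eno2 (-0.086), Eno3 (-0.33), Pkm (-0.45), Ogdh (-0.71), Suclg1 (-1.28), Suclg2 (-0.20) and Mdh2 (-1.26) reversed, and with GC-content correction that of Mdh2 (-0.48). Each of these TPM values still lay above the TPM median of all genes with at least 10 counts. Relative to the median of all genes with at least 10 counts, glycolysis was 0.50 higher, and 0.52, 0.24 and 0.44 under median-of-ratios factors, TPM and GC-content correction. The pyruvate dehydrogenase and TCA members were at -0.13 relative to that median, which was -0.43 in the main setting. Over genes with a mean of at least 100 counts in MEFs the median was -0.71. Under median-of-ratios factors, TPM and GC-content correction these members were at -0.11, -0.60 and 0.035 relative to the median of genes with at least 10 counts. Among all 46 members, called or not, the sign of the difference changed for 5, 15 and 7.

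With each MEF sample left out, 9 members were past the threshold on the higher side both times and 12 to 14 on the lower side. The medians ran from 0.0073 to 0.12 for glycolysis, from -0.61 to -0.41 for the pyruvate dehydrogenase and TCA members and from -0.61 to -0.38 for the TCA cycle enzymes alone. edgeR without a MEF sample was not run, since no residual degree of freedom remains. No paired analysis was possible because only 1 sample is labelled ESC and the labels share no replicate numbers. The depth of the library labelled ESC limits families with few counts, such as hexokinase (104) and the Pdk kinases (49).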
